A study of Bos taurus with 6 samples.

Results

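Cathepsins are the proteases of the lysosome, and cystatin C is their secreted inhibitor. They were followed here in the loin muscle (longissimus dorsi) of bulls aged 1 month or 24 months, of the Chinese Red Steppe breed. The genes are the cysteine cathepsins CTSB, CTSH, CTSK, CTSL, CTSS and CTSV, the aspartic cathepsin CTSD, and CST3, which encodes cystatin C. Every probe set (a group of short probes for 1 transcript) of the Affymetrix bovine array whose only annotated gene is 1 of these 8 was taken, which gave 15 of 24128 probe sets and 8 of 9155 named genes. The muscle came from 18 bulls, 9 per age, all male and kept on a standard diet, and the labels name no experimental treatment. RNA from 3 bulls was combined per pool and every pool had an array to itself, which gives n = 3 arrays at each age. Pools carry the numbers 1 to 3 at 1 month and the numbers 2 to 4 at 24 months. Pooling hides the spread between single bulls, so a p-value here reflects how pools of 1 age differ, part of which may be technical.

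Cathepsins are made as inactive precursors, tagged with mannose 6-phosphate, carried to the lysosome by receptors for that tag and activated there by removal of a propeptide. The cysteine cathepsins and CTSD break down proteins delivered by autophagy and endocytosis, and in skeletal muscle they act beside the calpains and the proteasome in protein turnover. Cystatin C blocks cysteine cathepsins outside the cell and does not act on the aspartic protease CTSD. Macrophages and fibroblasts make several cathepsins in large amounts, so whole muscle reports a mixture of cells. In such bulk RNA, fewer cells of a type and less RNA per cell cannot be told apart.

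Of the 15 probe sets, 11 were called present (signal above background, by the authors' detection call) on at least 3 of the 6 arrays and were tested, and all 8 genes were among them. Changes are given as log2 at 24 months minus log2 at 1 month, with the standard error of the limma fit after each ±, and a probe set is called changed where its adjusted p is under 0.05 (Benjamini-Hochberg, 13204 probe sets tested). CTSD rose with age and CTSV fell. These were 2 of the 11 tested probe sets (18.2%), beside 19.0% of all tested probe sets, so the share of changed members lies near the background. Rises were 1 of 11 against a background of 14.0%, and falls 1 of 11 against 4.99%. The median change was -0.02 over the 11 and 0.06 over all tested probe sets, and the median size of change was 0.31 and 0.32. The ages did not overlap for 3 of the 11 (CTSD, CTSK and CTSV; 27.3%), beside 43.4% of all tested probe sets. On single probe sets, 3 against 3 arrays allow no exact permutation p under 0.1, the two-sided value of each of these 3.

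**Figure D1:**
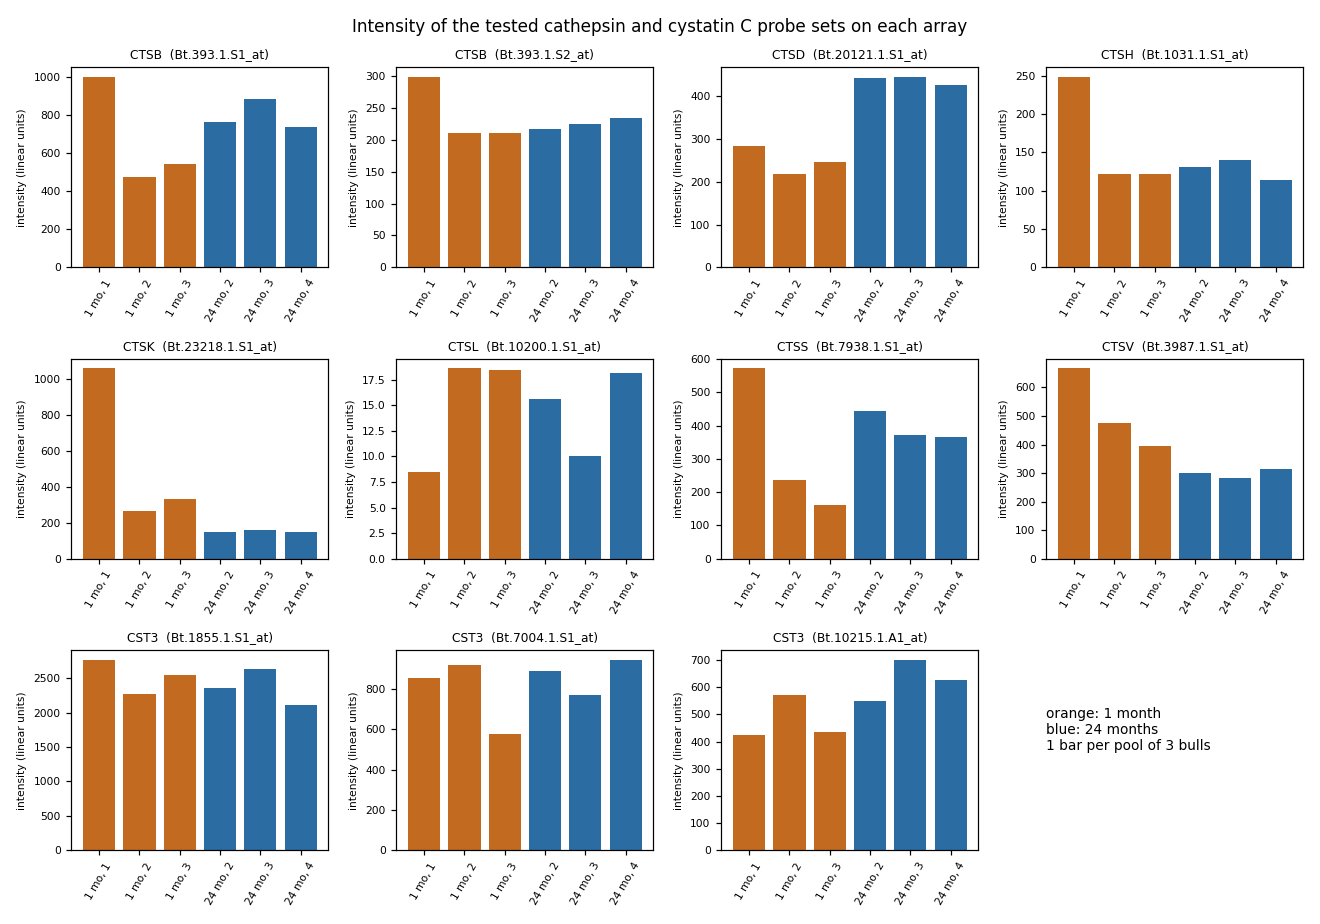
Intensity (linear units, vertical axis from 0) of the 11 tested probe sets on each array, with 1 bar per pool of 3 bulls (orange at 1 month, blue at 24 months). The CTSD bars are taller at 24 months, the CTSK and CTSV bars are taller at 1 month, and 1-month pool 1 has the tallest bar for 7 of the 11.

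CTSD encodes cathepsin D, the main aspartic protease of lysosomes. Its intensity was 284, 219 and 246 in 1-month pools 1, 2 and 3, and 444, 446 and 426 in 24-month pools 2, 3 and 4. Every older pool lay above every younger one, and the older pools were close together, at 438 ± 10.8 (SD, n = 3) against 250 ± 32.5 (SD, n = 3). CTSD rose by 0.78 ± 0.13 (limma adjusted p = 0.0122), which is 1.72-fold, with a 95% interval of 1.38 to 2.14. It was also called in a second table of the same arrays that the authors submitted, where the rise was 1.48 ± 0.27 after quantile normalization. Without 24-month replicate 2, 3 or 4 the rise stayed between 0.77 and 0.80 but was not called, with adjusted p from 0.0600 to 0.0640. In those 3 limma fits 0 of the 11 probe sets were called (4, 3 and 3 had an unadjusted p under 0.05), and of all tested probe sets 5.22%, 4.44% and 3.98%.

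CTSV and CTSL are closely related cysteine endopeptidases, and their naming in cattle is not settled by the annotation alone. The RefSeq gene table (assembly ARS-UCD2.0) lists CTSL, CTSL1 and CTSL2 as other names of the bovine gene called CTSV here, and CTSL1 as another name of the gene called CTSL. CTSV gave 667, 476 and 396 in the 1-month pools and 299, 281 and 314 in the 24-month pools. All younger pools lay above all older ones, and pool 1 was the highest. CTSV fell by 0.72 ± 0.20 (limma adjusted p = 0.0462), so that it was 1.65-fold lower at 24 months (95% interval 1.19 to 2.28). This call lay close to the threshold. It was kept without 1-month replicate 1 (-0.52 ± 0.14, adjusted p = 0.0474). It was lost when 1-month replicate 2 was left out (-0.76, 0.0746) and when any of the 24-month arrays was (-0.68 to -0.76, adjusted p up to 0.158). In the second table CTSV gave -0.47 ± 0.23 and was not called (adjusted p = 0.210).

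The probe set of the gene called CTSL here was at the edge of detection. Its intensities were 8.45, 18.6 and 18.4 at 1 month and 15.6, 10.1 and 18.2 at 24 months, with a present call on 1 younger and 2 older arrays. The ages overlapped throughout, and the fit gave -0.02 ± 0.19 (95% interval -0.46 to 0.43, adjusted p = 0.960). A change within that interval was not detectable on this probe set. The interval is also narrowed by the 16 added before the log2, which is close to these intensities. With 1 added instead, the fit gave -0.01 ± 0.34, so larger changes could be missed too.

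CTSK encodes cathepsin K, the collagen-degrading protease of osteoclasts, which fibroblasts make as well. It had the largest difference of the 8 genes and the least even replicates. Its intensity was 1061, 264 and 335 in the 1-month pools and 151, 158 and 146 in the 24-month pools. All younger pools lay above all older ones, but pool 1 stood 3.54-fold above the mean of the other young pools. The log2 SD was 1.04 at 1 month and 0.05 at 24 months. The fit gave -1.50 ± 0.47, a level 2.83-fold lower at 24 months (95% interval 1.31 to 6.08), and this was not called (limma adjusted p = 0.0667). Without 1-month replicate 1 the difference was smaller, -0.90 ± 0.15, and was called (adjusted p = 0.0135). It was called as well without 1-month replicate 2 (-1.88, 0.0440) and with quantile normalization (-1.60 ± 0.44, 0.0486). In the second table after that normalization it was also called (-1.66 ± 0.43, 0.0431). It was not called without 1-month replicate 3 (-1.71, limma adjusted p = 0.0537). Nor was it without any of the 24-month arrays (-1.48 to -1.52, adjusted p from 0.173 to 0.177). Of 18 alternative settings, 5 called it.

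CTSS encodes cathepsin S, the protease of antigen-presenting cells that trims the invariant chain of class II histocompatibility molecules. It gave 572, 236 and 163 at 1 month and 445, 371 and 367 at 24 months. Pools 2 and 3 of the young bulls lay below all older pools, while pool 1 lay above them. With all arrays the difference was 0.46 ± 0.41 (95% interval -0.51 to 1.42, limma adjusted p = 0.460). Without 1-month replicate 1 it was 0.95 ± 0.19 and was called (adjusted p = 0.0229). In the second table pool 1 was again the highest, at 477, and the fit gave 0.10 ± 0.42 (adjusted p = 0.887).

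CTSB, the most widely expressed lysosomal cysteine protease, is covered by 6 probe sets, of which 2 were tested. The brighter gave 1001, 477 and 542 at 1 month and 762, 887 and 739 at 24 months. Again the older pools lay between pool 1 and the other young pools. The difference was 0.31 ± 0.27 (95% interval -0.34 to 0.96, limma adjusted p = 0.459), and 0.63 ± 0.14, called, without 1-month replicate 1 (adjusted p = 0.0323). The dimmer read 299, 210 and 211 at 1 month and 218, 225 and 235 at 24 months. It moved much less: -0.07 ± 0.16 with all arrays and 0.09 ± 0.12 without 1-month replicate 1, neither called (adjusted p = 0.804 and 0.611). The 2 detected CTSB probe sets therefore disagreed in size without pool 1 and in sign with it. The other 4 CTSB probe sets were present on 0 to 2 arrays and were not tested. One of them was present on 1 young array and another on 2 older arrays, and the remaining pair on 0 of 6.

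CTSH encodes cathepsin H, which works mainly as an aminopeptidase. It gave 248, 121 and 122 at 1 month and 131, 140 and 114 at 24 months, so that the array of 1-month pool 1 stood alone and the other 5 overlapped. The difference was -0.25 ± 0.27 (95% interval -0.89 to 0.39, limma adjusted p = 0.542), and 0.06 ± 0.14 without 1-month replicate 1 (adjusted p = 0.765).

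CST3, the inhibitor, was bright on 3 probe sets, present on all 6 arrays and not called on any of them. The brightest read 2765, 2265 and 2541 at 1 month and 2356, 2637 and 2108 at 24 months, with a difference of -0.09 ± 0.14 (95% interval -0.44 to 0.25). The second read 854, 917 and 576 and then 889, 770 and 944, with 0.17 ± 0.20 (-0.30 to 0.64). The dimmest read 425, 572 and 434 and then 551, 700 and 627, with 0.39 ± 0.17 (-0.01 to 0.78). The ages overlapped on all 3, and the limma adjusted p were 0.679, 0.584 and 0.146. On the dimmest probe set 5 of the pools kept the order of the ages and 1-month pool 2 (572) lay among the older ones.

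**Figure D2:**
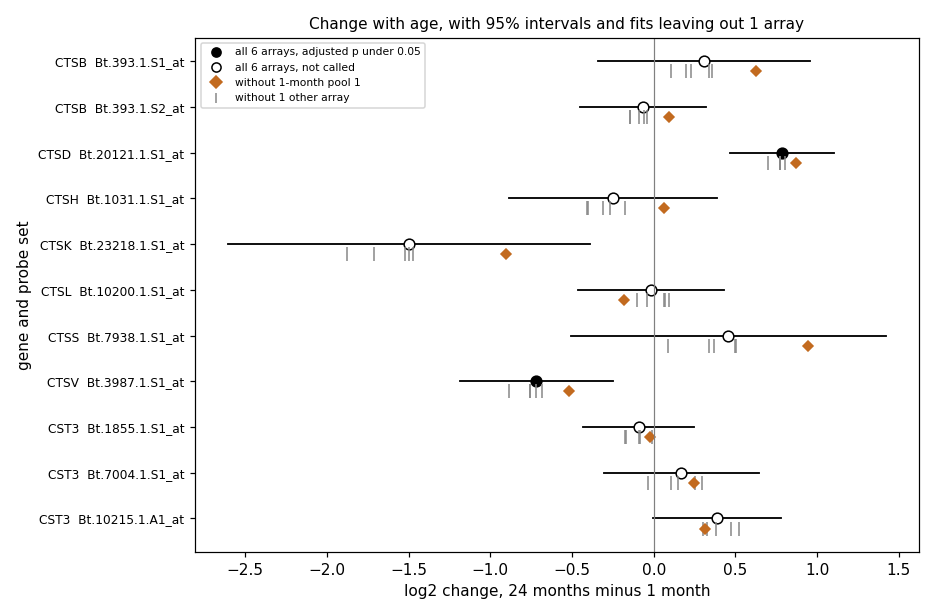
Change with age of the 11 tested probe sets (horizontal axis, log2 at 24 months minus log2 at 1 month), with 95% intervals of the fit on all 6 arrays; filled circles are called. Orange diamonds are fits without 1-month pool 1 and grey ticks fits without 1 other array: CTSD (0.78) and CTSV (-0.72) are filled, and without pool 1 CTSK moves to -0.90, CTSS to 0.95 and the brighter CTSB probe set to 0.63.

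Much of the variation among the members lay within the young pools. The log2 SD was larger at 1 month than at 24 months for 10 of the 11 probe sets, and over all tested probe sets the median SD was 0.26 at 1 month and 0.12 at 24 months. Pool 1 was the highest of all 6 arrays for 7 of the 11 (both CTSB probe sets, CTSH, CTSK, CTSS, CTSV and 1 of CST3), beside 23.5% of all tested probe sets. Left out, it brought the called members from 2 to 5 of 11 (CTSB, CTSD and CTSS higher, CTSK and CTSV lower), beside a background of 19.9%.

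Summed markers of fibroblasts, macrophages, fat cells and neutrophils were highest in the same pool, those of other lists were not. Endothelial sums were 976, 959 and 1213 in 1-month pools 1, 2 and 3, and red cell sums 3748, 4355 and 377. Muscle fibre sums were highest at 24 months. The fibroblast list, 9 of 9 markers present on at least 1 array, had a summed intensity of 25902, 7294 and 8778 at 1 month and 6158 to 7939 at 24 months, and all 8 of its tested genes were highest in 1-month pool 1. Its brightest genes were DCN, the matrix proteoglycan decorin, with log2 levels of 12.75, 11.29 and 11.72 in the young pools, and COL3A1, a fibrillar collagen, with 11.41, 10.91 and 11.37. By limma 0 of the 8 changed with age (1 had an unadjusted p under 0.05), beside 17.0% of all named genes. The fitted differences of all 8 lay below 0, as did those of 3066 of all 6423 named genes. The macrophage list, with 11 of 13 markers present (CSF1R and ITGAM were present on no array), summed to 1818, 1153 and 941 at 1 month and 1388 to 1617 at 24 months. As for CTSS and the brighter CTSB probe set, pools 2 and 3 of the young bulls were lowest and pool 1 highest. The fat cell list had that order too, with sums of 2699, 303 and 706 at 1 month and 995 to 1390 at 24 months (LEP not present). The brightest genes of the macrophage list were C1QA of the complement system and PTPRC, the common leukocyte antigen. In the young pools their log2 levels were 8.70, 7.87 and 7.51 for C1QA, and 8.51, 7.89 and 7.84 for PTPRC. Pool 1 was the highest array for 7 of the 11 tested macrophage genes. By limma 0 of these 11 macrophage genes changed with age (1 had an unadjusted p under 0.05), again beside 17.0% of all named genes. The part of these cells in the cathepsin values was not tested.

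**Figure D3:**
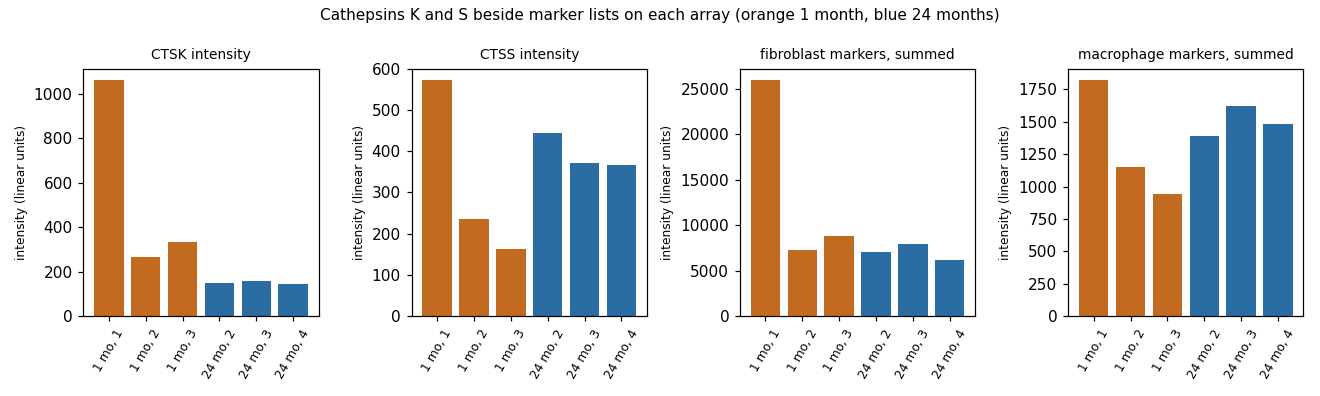
Intensity of CTSK and CTSS and summed intensity of the fibroblast and macrophage marker lists on each array (linear units, axes from 0; orange at 1 month, blue at 24 months). 1-month pool 1 is the tallest bar in every panel, at 1061, 572, 25902 and 1818; the 24-month macrophage bars lie above those of young pools 2 and 3.

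The arrays also differed in the actin control, whose 3' signal exceeds its 5' signal more in degraded or shortly labelled RNA. The log2 of that ratio was 0.85, 0.69 and 0.46 in 1-month pools 1, 2 and 3 and 0.22 to 0.26 at 24 months (exact permutation p = 0.1, two-sided, the smallest possible), and 48.9% to 52.5% of probe sets were called present at 1 month against 54.8% to 56.4% at 24 months. The same ratio of the GAPDH control was 0.38, 0.36 and 0.26 in 1-month pools 1, 2 and 3. At 24 months it was 0.08 to 0.14 (exact permutation p = 0.1, two-sided). In the second table the actin ratio did not separate the ages (-0.30 to -0.17 at 1 month, -0.26 to -0.16 at 24 months). Nor did the GAPDH ratio there (-0.18 to -0.03 at 1 month, -0.10 to -0.05 at 24 months). In the values tested here the actin ratio did separate the ages, so a fit with age and that ratio cannot fully tell them apart. With the actin ratio as a covariate CTSD gave 0.96 ± 0.26 and CTSV 0.05 ± 0.24, neither called (limma adjusted p = 0.0796 and 0.922). In that fit CTSK gave 0.07 ± 0.74 (adjusted p = 0.965), and CTSS, at 2.25 ± 0.37, was the 1 called member (0.0272), beside a background of 7.54%. Muscle itself was well represented: all 8 fibre markers on the array were present and 4 rose by limma, with sums of 50021 to 51619 at 1 month and 68830 to 70478 at 24 months. Of the fat cell markers 2 of 4 tested genes rose by limma. Of the endothelial markers 2 of 3 fell, with sums of 959 to 1213 at 1 month and 696 to 755 at 24 months (ENG, KDR and VWF not present). All 3 tested neutrophil markers fell, with sums of 400 to 979 and 176 to 208 (LTF and MPO not present). Of the red cell markers 1 of 3 fell, with sums of 377 to 4355 and 209 to 248 (ALAS2 not present). Over all 6423 named genes on their brightest probe sets, 723 rose and 368 fell by limma (17.0% in either direction).

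Of 4 listed genes that process and activate cathepsins, PSAP and LGMN were tested and both rose, beside 17.0% of all named genes called in either direction on their brightest probe sets. PSAP encodes prosaposin, the precursor of the saposins, which binds procathepsin D, and LGMN encodes legumain, the asparaginyl protease that cleaves cathepsins B, H and L to their mature chains. On its brightest probe set PSAP read 761, 573 and 546 at 1 month and 1193, 1512 and 1256 at 24 months, with every older pool above every younger one. It rose by 1.06 ± 0.17 (limma adjusted p = 0.0104), and its 3 other probe sets were called too, at 1.06 to 1.85. LGMN read 212, 326 and 195 at 1 month and 499, 557 and 549 at 24 months, again without overlap, and rose by 1.11 ± 0.20 (adjusted p = 0.0136), or 2.16-fold. TPP1 was present on only 2 arrays. Among the young pools, pool 1 was the highest on the brightest PSAP probe set and pool 2 for LGMN. The call of LGMN was lost without each 24-month array (adjusted p from 0.0550 to 0.0679), and that of the brightest PSAP probe set without 24-month replicates 3 and 4 (0.0547 and 0.0544). With the actin ratio as a covariate LGMN gave 1.29 and was not called (0.111).

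No other cathepsin or cystatin passed. CTSC, the dipeptidyl peptidase cathepsin C, CTSF and CTSZ gave 0.08 ± 0.26, 0.07 ± 0.26 and 0.23 ± 0.23 (limma adjusted p = 0.846, 0.861 and 0.508). CTSZ, a carboxypeptidase, read 372, 219 and 205 at 1 month and 311, 337 and 269 at 24 months, so that its older pools also lay between young pool 1 and young pools 2 and 3. Without 1-month replicate 1 it gave 0.49 ± 0.14 (adjusted p = 0.0595). CST6, cystatin E/M, was the 1 tested cystatin besides CST3 and varied most among the young pools, at 2767, 1229 and 171, against 482, 797 and 453 at 24 months. It gave -0.59 ± 0.90 (adjusted p = 0.676), and -1.70, called, without 1-month replicate 3 (0.0251). CTSA and CTSW were not present often enough to be tested.

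The wider lysosomal lists held 75 tested genes, each on its brightest probe set, of which 8 rose and 3 fell (14.7%), beside 17.0% of all named genes counted in the same way. The median change was 0.11 in the lists and 0.03 over all named genes. The lists were described by counts, and no test of a list as a whole was made.

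Among the genes that carry cathepsins to the lysosome, 2 of 12 rose and 0 fell by limma (2 falls had an unadjusted p under 0.05). That is 16.7%, beside 17.0% of all named genes called in either direction. M6PR, the cation-dependent mannose 6-phosphate receptor, rose by 0.59 ± 0.14 (adjusted p = 0.0328), and GGA1, an adaptor for that receptor's sorting, by 0.64 ± 0.15 (0.0331). Of 13 membrane genes 1 rose by limma (7.69%). LAMP1, an abundant lysosomal membrane glycoprotein, rose by 0.68 ± 0.18 (adjusted p = 0.0392). Its other probe set gave 0.39 ± 0.13 and was not called (0.0718). That probe set was called without 1-month replicate 1 (0.46, 0.0491). LAPTM4B, a transmembrane protein of late endosomes, gave -0.90 ± 0.32 and was not called (0.0952).

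Of 18 other hydrolases 0 rose and 1 fell by limma (5.56%, beside 17.0% of all named genes). The unadjusted p was under 0.05 for 1 rise. MANBA, the beta-mannosidase, fell by 0.89 ± 0.23 (adjusted p = 0.0380). The thioesterase PPT2 gave 0.39 ± 0.12 and was not called (0.0737). The median of this list was -0.22, with 13 of 18 genes below 0, beside 3066 of all 6423 named genes. In 1-month pool 1, 10 of the 18 had their highest value, beside 1595 of the 6423. Of 16 subunits of the proton pump that acidifies the lysosome 0 rose by limma (4 at an unadjusted p under 0.05) and 1 fell (6.25%). The fall was that of ATP6V0E1, by 0.52 ± 0.14 (adjusted p = 0.0473). ATP6V1B2 gave 0.46 ± 0.13 and was not called (0.0541). The calls of M6PR, GGA1, LAMP1, MANBA and ATP6V0E1 were lost without each 24-month array (adjusted p from 0.0967 to 0.158). Without 1-month replicate 2 those of M6PR, GGA1 and LAMP1 were lost too (0.0605, 0.0580 and 0.0528), and that of ATP6V0E1 without 1-month replicates 1 and 3 (0.0673 and 0.0528). In the second table, quantile normalized, GGA1 gave 0.14, MANBA -0.19, M6PR 0.86 and LAMP1 0.56, none of them called (0.642, 0.696, 0.0675 and 0.0670). Quantile normalization of the main table ended the calls of GGA1 (0.53, 0.0781) and LAMP1 (0.50, 0.0558). With the actin covariate GGA1 gave 0.20, M6PR 0.36, LAMP1 0.65 and ATP6V0E1 -0.30, none of them called (0.666, 0.452, 0.315 and 0.536), while MANBA gave -1.68 and was called (0.0393).

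The largest changes were among the regulators of the lysosome, where 3 of 10 rose and 1 fell by limma. This was 40% called, beside 17.0% of all named genes in either direction. MITF, a transcription factor of the family that drives lysosomal genes, rose by 1.86 ± 0.19 (adjusted p = 0.00376). It was not present on all arrays. Its log2 levels were 6.43, 6.64 and 6.90 at 1 month and 8.76, 8.21 and 8.57 at 24 months. TFE3, of the same family, gave 0.06 ± 0.12 and was not called (0.763). RRAGD, a GTPase that recruits the growth kinase mTORC1 to the lysosome, rose by 1.79 ± 0.21 (0.00483), and FLCN, folliculin, which acts on that GTPase, by 1.43 ± 0.17 (0.00485). RRAGB, another GTPase of the same complex, fell by 0.49 ± 0.13 (0.0431). MITF, RRAGD and FLCN were called whichever array was left out, and RRAGB only without 1-month replicate 2 among those fits. FLCN gave 0.60 ± 0.22 in the second table, quantile normalized, and was not called there (adjusted p = 0.116). With the actin covariate RRAGD gave 2.19 and was called (0.0363), while MITF gave 1.42, FLCN 0.88 and RRAGB -0.65, none of them called (0.0651, 0.0938 and 0.165). RRAGB was also not called with quantile normalization (-0.48, 0.0526).

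**Figure D4:**
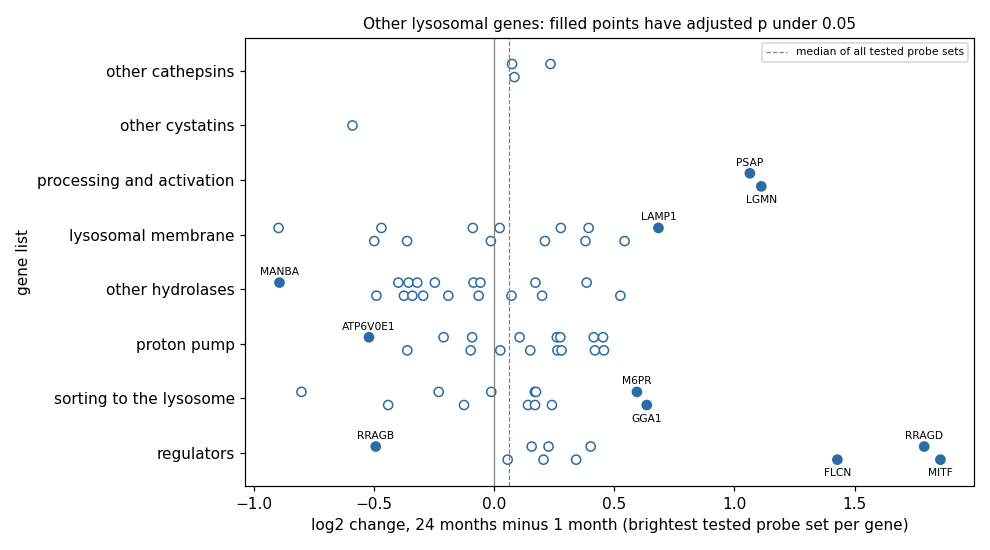
Change with age (log2, 24 months minus 1 month, horizontal axis) of each tested gene in 8 lists of other lysosomal genes, on its brightest probe set; filled, named points are called and the dashed line is the median of all tested probe sets (0.06). MITF, RRAGD and FLCN lie farthest to the right at 1.43 to 1.86, and the 3 called falls, MANBA, ATP6V0E1 and RRAGB, lie between -0.89 and -0.49.

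The genes whose profile over the 6 arrays was closest to each called member were taken by the smallest root mean square difference of the mean-centred log2 values, among probe sets of other named genes. For CTSD they were SNX17, a sorting nexin of endosomes, at 0.05, and the kinase MAP2K4, at 0.06, with age differences of 0.79 and 0.84. For CTSV they were ORMDL2, a regulator of sphingolipid synthesis, at 0.05, and SRA1, at 0.06, with age differences of -0.68 and -0.69; SRA1 was not called. The profiles of CTSD and CTSV themselves had a root mean square of 0.40 and 0.42 around their means. The neighbouring genes were chosen for a close profile over the same arrays, so their similar age differences follow from that choice. SNX17 lost its call in 7 of 17 alternative settings, MAP2K4 in 2 of 18 and ORMDL2 in 10 of 18.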

How the data were processed

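The age of each of the 6 arrays comes from the labels, and table columns carry the sample titles. The intensity values tested are linear and were deposited by the authors in a table whose name refers to dChip, a program for Affymetrix arrays. For its version, probe model, background step and normalization, no source used here gives them. It also holds detection calls on all arrays and, per the file headers, a detection p-value for the 1-month arrays, which was not used. The authors deposited another table of the same arrays, also linear intensity, whose scale and normalization are unknown. Gene names come from the platform annotation of the probe sets (13292 with 1 symbol); through the gene identifier 13263 matched RefSeq's ARS-UCD2.0 gene table.

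The test was limma 3.58.1 (lmFit and eBayes, R 4.3.3) on log2(intensity + 16) without covariates, two-sided, over the 13204 probe sets present on at least 3 arrays, control probe sets left out. The 6 array medians spanned 0.03 on the log2 scale; above 0.2 they would have been normalized further. Fold changes on this scale understate those of dim probe sets. The fit was tested on simulated data. Gene lists are from textbook knowledge; each gene stands on its brightest tested probe set. All probe sets of the 8 genes are given; in each lysosomal list the 2 genes of smallest p are named, with every called gene; in the fibroblast and macrophage lists the 2 brightest. CTSF, TFE3 and genes given as not tested, and the other probe sets of PSAP and LAMP1, were added beside these. The genes and lists were chosen with earlier results of these data known. Precision is limited by the number of arrays. Planned sequence comparisons were not run.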

Additional observations from a re-analysis of the deposited data

How the results depend on the processing

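The counts of calls, the 11 tested members and 26 other named probe sets were recomputed under 18 alternatives (17 for CTSL, CTSF, MITF and SNX17, which are not present on all arrays). Of 197 member results 163 kept direction and side of the threshold, 13 lost a call, 8 gained one and 13 changed sign. The called members, 2 of 11, numbered 1 with limma's intensity trend (CTSV lost, adjusted p = 0.0565), 1 with the actin covariate, and 0 to 5 with 1 array left out. The other lysosomal calls, 11 of 75, numbered 3 to 15 with 1 array left out. All calls, 2513, numbered 526 to 3476 with 1 array left out, 996 with the actin covariate, 1641 in the second table with quantile normalization and 1169 without. Rises were 1854 of the 2513, 1534 of 2368 with quantile normalization, and 1006 of 1641 and 658 of 1169 in the second table. Same-numbered pools (2 and 3) deviated from their group means with correlations of -0.18 and 0.06 over probe sets, so the numbers were not taken to pair the pools. A fit with the replicate number as a block was still run. In it 1-month pool 1 and 24-month pool 4 have no partner, so the age difference rests on pools 2 and 3. Few calls can be reached with so few arrays. With this block limma called 0 members, 0 other lysosomal genes and 129 of all probe sets (0.977%). An unadjusted p under 0.05 was found for 5 members and 13 of those genes.

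Signs changed as follows, with a call only for CST6. With the actin covariate CTSV gave 0.049, CTSK 0.069, CTSH 0.67, the dimmer tested CTSB probe set 0.40, CST6 3.52 (adjusted p = 0.0384) and SRA1 0.11. With the replicate block CTSH gave 0.14, the dimmer CTSB probe set 0.065, the brightest of CST3 0.055 and CST6 0.40. With 1 array left out CTSH ranged from -0.41 to 0.064, the dimmer CTSB probe set from -0.15 to 0.092, CTSL from -0.18 to 0.095, the second CST3 probe set from -0.033 to 0.29, CST6 from -1.70 to 0.25, CTSC from -0.20 to 0.34 and CTSF from -0.17 to 0.35. Quantile normalization gave -0.028 for CTSC. In the replicate block fit the age difference comes from pools 2 and 3 alone. The cause of the other sign changes was not tested.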
